A study of Mus musculus with 8 samples.

Results

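The inter-alpha-trypsin inhibitor family was described in isolated club cells, which are secretory epithelial cells of the airways, from Atgl KO/cTg and wt/cTg mice. The 7 members were the 5 heavy chain genes Itih1, Itih2, Itih3, Itih4 and Itih5, with Ambp and Tnfaip6, out of 22180 genes on the array. A member was taken from the probe set annotated with that symbol alone, and each member had 1 such probe set. The members were chosen by the family of Itih4, which itself was selected on its difference between the genotypes in these same arrays, so the differences of its members between genotypes are given as a description, with their error. No p is given for a member, and where a member's place in the fit across all genes is stated, nothing is read from it.

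There were 4 Atgl KO/cTg pools, each of 4 mice, and 4 wt/cTg pools of 3 or 4 mice, 16 and 14 mice in all, aged 38 to 48 weeks. Atgl, now named Pnpla2, encodes adipose triglyceride lipase, which starts the breakdown of stored triglyceride. All groups carry cTg, which the labels do not expand, and animals were untreated and on standard chow. The design text describes the genotypes as set against each other in 4 sets, but no label says which pools make up a set, so the pools were compared unpaired. Each replicate is a pool, so the spread is a spread between pools of mice.

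Inter-alpha-trypsin inhibitors are plasma proteins known mainly as products of the liver. Their heavy chains are joined through a chondroitin sulfate chain to bikunin, a Kunitz-type serine protease inhibitor cut from the Ambp product. The secreted protein TSG-6, encoded by Tnfaip6, moves heavy chains from bikunin onto hyaluronan, and the modified hyaluronan forms stable matrix at sites of inflammation, the airway among them. The Itih4 product is the exception, since it is not joined to bikunin, is a substrate of plasma kallikrein and is known as an acute phase protein.

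The start site windows of the 3 members with the largest differences are shown, since Itih4 and Itih3 lie side by side in the genome and both read lower in Atgl KO/cTg, while Itih2 read higher on average. Each is RefSeq sequence of build GRCm38.p6, 250 bases before to 50 after the annotated start, written 5′ to 3′ on the gene's strand: Itih4 at chr14:30886226-30886525 (plus strand), Itih3 at chr14:30923538-30923837 (minus strand) and Itih2 at chr2:10130634-10130933 (minus strand). Capitals mark matches to 1 of 4 motifs on either strand: TTCNNNGAA (STAT), TTGCNNAA (C/EBP), CCGGAA (ETS) and CAAGTG (NKX2-1).
Itih4: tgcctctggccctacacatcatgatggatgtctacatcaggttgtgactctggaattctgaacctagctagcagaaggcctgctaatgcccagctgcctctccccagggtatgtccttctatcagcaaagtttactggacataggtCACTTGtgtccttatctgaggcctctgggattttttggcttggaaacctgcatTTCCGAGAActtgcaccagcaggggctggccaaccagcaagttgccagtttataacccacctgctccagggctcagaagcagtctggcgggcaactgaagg
Itih3: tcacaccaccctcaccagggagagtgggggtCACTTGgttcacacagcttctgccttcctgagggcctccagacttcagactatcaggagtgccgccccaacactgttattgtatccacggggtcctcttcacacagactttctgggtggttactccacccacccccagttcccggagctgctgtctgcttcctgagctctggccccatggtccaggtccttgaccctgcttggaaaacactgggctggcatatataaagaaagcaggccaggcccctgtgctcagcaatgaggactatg
Itih2: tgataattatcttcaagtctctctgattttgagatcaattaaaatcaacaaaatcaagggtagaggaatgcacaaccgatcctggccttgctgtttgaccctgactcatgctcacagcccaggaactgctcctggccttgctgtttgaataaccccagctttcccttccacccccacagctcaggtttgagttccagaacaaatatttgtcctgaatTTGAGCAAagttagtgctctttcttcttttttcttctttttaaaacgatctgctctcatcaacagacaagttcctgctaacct
The Itih4 window held CAAGTG on the opposite strand, starting at base 147 of the window, and the STAT motif TTCCGAGAA, starting at base 200. The Itih3 window held CAAGTG on the opposite strand, starting at base 32, and the Itih2 window held the C/EBP motif on the opposite strand, starting at base 218. Among all 32851 windows of this length, 8.3% held the STAT motif, 10.8% the C/EBP motif, 14.9% the ETS motif and 13.6% the NKX2-1 motif. Among the windows of all 7 members, 2 held the STAT motif (Itih4 and Tnfaip6), 1 the C/EBP motif, 2 the NKX2-1 motif and 0 the ETS motif. These matches describe the letters only.

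The deposited arrays matched their genotype labels, with log2 signals of Pnpla2 from 6.70 to 7.16 in the Atgl KO/cTg pools and from 8.62 to 8.86 in the wt/cTg pools. In 1 pool, wt/cTg replicate 4, Xist read 3.75 against 9.34 to 10.67 in the others, so values without it are given beside the main members. Y-linked transcripts also ran with genotype in the remaining pools. Kdm5d read 5.75 to 6.51 in the pools without Atgl, 5.27 to 5.51 in wt/cTg replicates 1 to 3 and 7.05 in wt/cTg replicate 4. Eif2s3y read 6.49 to 7.17, 6.03 to 6.36 and 7.996 in the same pools. The part of sex in the members' differences was not tested. All 10 club cell markers lay above the level filter (5.18, the median of all probe sets), with a mean over them of 11.90 to 12.14 on each array. All 15 alveolar type 2 markers did too (9.97 to 10.96), so transcripts of both cell types were present. Of 11 hepatocyte markers, 5 lay above the filter, and Alb, serum albumin, lay below it in each genotype (means of 4.23 with Atgl missing and 4.21 in wt/cTg).

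Itih4 was the member with the largest difference, and each of its Atgl KO/cTg values lay below each wt/cTg value. Its log2 signal read 7.03, 7.63, 6.65 and 6.82 in Atgl KO/cTg replicates 1 to 4, and 8.22, 8.10, 8.30 and 8.12 in wt/cTg replicates 1 to 4. The groups were separated by a gap of 0.47, and the wt/cTg pools lay close together while Atgl KO/cTg replicate 2 stood above its group. It averaged 7.03 ± 0.43 over the Atgl KO/cTg pools, against 8.19 ± 0.09 over the wt/cTg pools (SD, n = 4 each), a difference of -1.15 (SE 0.18, 95% interval -1.55 to -0.76). This is a level of 0.45 of that in wt/cTg, as far as array signal follows RNA. In bulk samples, fewer cells of a type and less RNA per cell cannot be told apart.

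In the limma fit across all genes 13 of 13112, 0.0991%, passed an adjusted p of 0.05, 11 of them lower (0.0839%) and 2 higher (0.0153%). Itih4 was among them, which is why the family was chosen, so its place there is no evidence. Its place there was lost with most single arrays left out, while the difference itself ran from -1.35 to -1.03. Without Atgl KO/cTg replicate 2 the difference was -1.35 and Itih4 was still among the genes past the threshold. It was not when Atgl KO/cTg replicate 1 (-1.15), 3 (-1.03) or 4 (-1.08) was left out. Nor was it when wt/cTg replicate 1 (-1.14), 2 (-1.18) or 3 (-1.12) was left out, or replicate 4 (-1.17), the pool with low Xist. Centring arrays on their medians called 19 genes, 18 lower and 1 higher, against 11 lower and 2 higher in the values as deposited.

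**Figure D1:**
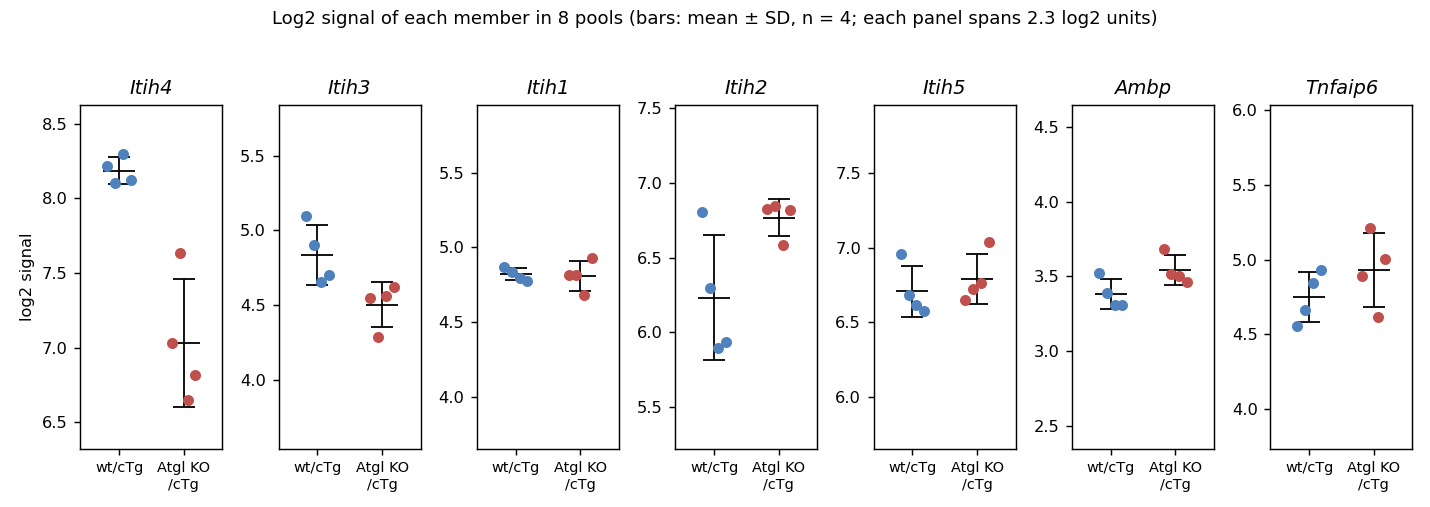
Log2 signal (vertical axis) of the 7 members in the 4 wt/cTg pools (blue) and 4 Atgl KO/cTg pools (red), with horizontal bars for the mean ± SD; every panel spans the same number of log2 units. Itih4 lay between 6.65 and 7.63 in Atgl KO/cTg and between 8.10 and 8.30 in wt/cTg, and the groups of Itih1, Itih2, Itih5, Ambp and Tnfaip6 overlapped.

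Itih3, the gene next to Itih4 and a heavy chain that is joined to bikunin, also read lower, but at a level below the filter. It read 4.55, 4.28, 4.56 and 4.62 in Atgl KO/cTg and 5.09, 4.90, 4.66 and 4.70 in wt/cTg. The groups did not overlap, but only 0.03 lay between the highest Atgl KO/cTg pool and the lowest wt/cTg pool. The means were 4.50 ± 0.15 and 4.84 ± 0.20 (SD, n = 4), a difference of -0.33 (SE 0.13 in the fit without a level filter), and -0.38 without wt/cTg replicate 4. The signal lay below the median of all probe sets and detection was not tested, so the values do not show that the gene was expressed. Of the 7 members, 2 had groups that did not overlap, both lower. Over all 22180 genes this held for 3.82%, and for 1.92% in the lower direction. The rule's own contrast was used here, so nothing is read from that count.

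Itih1, the third heavy chain gene of the same cluster, differed least of all members. It read 4.81, 4.81, 4.68 and 4.93 in Atgl KO/cTg and 4.87, 4.83, 4.80 and 4.78 in wt/cTg. The groups overlapped throughout, with a difference of -0.01 (SE 0.10, 95% interval -0.24 to 0.21), and the signal lay below the filter.

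Itih2, whose product is joined to bikunin together with that of Itih1 in the plasma inhibitor, had its difference in the opposite direction to Itih4. It read 6.82, 6.85, 6.58 and 6.82 in Atgl KO/cTg and 6.80, 6.29, 5.90 and 5.94 in wt/cTg. Here the Atgl KO/cTg pools lay close together and the wt/cTg pools were spread, and wt/cTg replicate 1 lay within the Atgl KO/cTg range. The means were 6.77 ± 0.12 and 6.23 ± 0.42 (SD, n = 4), a difference of 0.54 (SE 0.18, 95% interval 0.13 to 0.94). Leaving out wt/cTg replicate 1 gave 0.73, and leaving out wt/cTg replicate 4 gave 0.44.

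The size of the Itih2 difference also depended on which pools were set against each other. The titles carry mouse numbers, and neighbouring numbers form 3 runs that hold both genotypes. Within them the Itih2 difference was 0.03 (2 Atgl KO/cTg pools against 1 wt/cTg pool), 0.29 and 0.88 (1 pool against 1 in each). The Itih4 difference in the same runs was -0.89, -1.45 and -1.31, and that of Itih3 was -0.68, -0.34 and -0.08. The labels do not say whether a run of numbers is 1 of the 4 sets. Fitted with the runs as a block, without wt/cTg replicate 3, the differences were -1.18 for Itih4 and 0.36 for Itih2.

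Itih5, a heavy chain gene beside Itih2 on chromosome 2, was above the filter and overlapped between genotypes. It read 6.65, 6.72, 6.76 and 7.03 in Atgl KO/cTg and 6.96, 6.68, 6.62 and 6.57 in wt/cTg. The means were 6.79 ± 0.17 and 6.71 ± 0.17 (SD, n = 4), a difference of 0.09 (SE 0.12, 95% interval -0.19 to 0.36), so a change of the size seen for Itih4 lies outside the interval. Within the runs of mouse numbers it was -0.27, 0.08 and 0.46.

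Ambp, the bikunin precursor, gave a signal far below the filter in every pool. It read 3.69, 3.52, 3.50 and 3.46 in Atgl KO/cTg and 3.52, 3.39, 3.31 and 3.31 in wt/cTg. The difference was 0.16 (SE 0.10, 95% interval -0.06 to 0.37), with wt/cTg replicate 1 inside the Atgl KO/cTg range.

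Tnfaip6, which encodes the TSG-6 that transfers heavy chains to hyaluronan, also lay below or close to the filter. It read 4.89, 5.21, 4.62 and 5.01 in Atgl KO/cTg and 4.56, 4.67, 4.84 and 4.93 in wt/cTg. Only Atgl KO/cTg replicate 2 exceeded the filter value, and the groups overlapped. The difference was 0.18 (SE 0.15, 95% interval -0.13 to 0.50). Across the family, 3 members read lower on average and 4 read higher, and 4 of the 7 did not pass the level filter: Itih1, Itih3, Ambp and Tnfaip6.

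**Figure D2:**
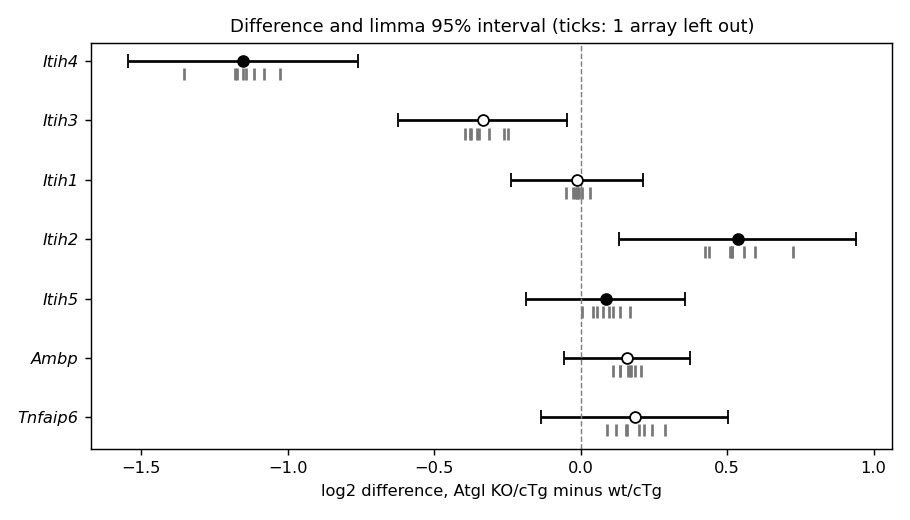
Log2 difference of each member (horizontal axis, Atgl KO/cTg minus wt/cTg) with its limma 95% interval; filled points passed the level filter, open points did not, and grey ticks are the differences with 1 array left out. Itih4 ran from -1.35 to -1.03 and Itih2 from 0.42 to 0.73 with 1 array left out, and the interval of Itih1 (-0.24 to 0.21) held 0.

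Markers of alveolar type 2 cells, the surfactant-making cells of the alveolus, differed between the genotypes in the same direction as Itih4, and their part in its difference was not tested. All 15 listed markers were above the filter and all 15 were below 0 (median difference -0.65, against -0.01 over all genes tested). Over all 13112 genes tested, 6851 lay below 0. Of the 15 markers, 5 passed as lower, against 0.0839% of all genes tested, but the list was drawn up with earlier results of these arrays known. The count of 5 was 7 without Atgl KO/cTg replicate 2, 8 without wt/cTg replicate 1 and 0 with any other single array left out, at medians of -0.74 to -0.59. It was also 0 with runs of mouse numbers as a block (median -0.67), without the variance trend and after quantile normalization (-0.62), and 9 with array weights. Their mean log2 signal was 9.97 to 10.28 in Atgl KO/cTg and 10.44 to 10.96 in wt/cTg, without overlap. Within Atgl KO/cTg, replicate 2 had both the highest marker mean (10.28) and the highest Itih4 (7.63), and replicate 3 the lowest of both (9.97 and 6.65). Within wt/cTg, replicate 1 had the lowest marker mean (10.44), but its Itih4 (8.22) was the second highest of the group. The same pool had the highest Itih2 of the group (6.80).

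The other 12 marker lists are given in full, with the range of the mean log2 signal over their tested members, and their part in the members' differences was not tested. For comparison, 1043 of all 13112 genes tested had an unadjusted limma p under 0.05. Of all 13112 genes tested, 47.8% lay above 0. Cardiac muscle markers had 6 of 7 below 0 (median -0.51), with a mean of 6.73 to 6.88 in the pools without Atgl and 7.21 to 7.42 in wt/cTg. Of the 7, 2 passed as lower, against 0.0839% of all genes tested, but this list too was drawn up with earlier results known. The count of 2 was 1 without Atgl KO/cTg replicate 3 and 0 with any other single array left out. No member of the remaining 11 lists passed limma over all genes.

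In 4 further lists most members lay below 0, with medians of -0.49 to -0.27. Smooth muscle markers had 6 of 6 below 0 (median -0.49, 4 at an unadjusted p under 0.05), with means of 5.95 to 6.39 in Atgl KO/cTg pools and 6.47 to 7.02 in wt/cTg pools. Fibroblast markers had 11 of 12 below 0 (median -0.35, 4 at an unadjusted p under 0.05), with means of 8.94 to 9.44 and 9.32 to 9.74. Alveolar type 1 markers had 9 of 10 below 0 (median -0.27, 2 at an unadjusted p under 0.05; 8.26 to 8.65 and 8.46 to 9.30). Endothelial markers had 8 of 10 below 0 (median -0.34, 2 at an unadjusted p under 0.05; 8.40 to 9.13 and 8.89 to 9.55). Of these lists only smooth muscle had means that did not overlap.

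Neutrophil markers had 7 of 7 above 0 (median 0.56, 4 at an unadjusted p under 0.05), with means of 7.61 to 8.64 in Atgl KO/cTg pools and 7.42 to 8.09 in wt/cTg pools. Ciliated markers had 8 of 9 above 0 (median 0.23, 2 at an unadjusted p under 0.05; 8.35 to 8.74 and 7.94 to 8.59). Club cell markers had 8 of 10 above 0 (median 0.10, 4 at an unadjusted p under 0.05; 12.02 to 12.14 and 11.90 to 12.04). Macrophage markers lay on both sides, with 6 of 10 above 0 (median 0.10, 3 at an unadjusted p under 0.05), and their means did not overlap (8.90 to 9.21 and 8.76 to 8.87). Mesothelial markers had 8 of 9 above 0 (median 0.10, means of 9.53 to 9.996 and 9.47 to 9.96) and hepatocyte markers 4 of 5 (median 0.04, means of 5.63 to 5.997 and 5.65 to 5.83). Lymphocyte markers had 7 of 8 below 0, at a median of -0.06 (means of 9.38 to 9.57 and 9.08 to 9.82). None in the mesothelial, hepatocyte and lymphocyte lists had an unadjusted p under 0.05.

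**Figure D3:**
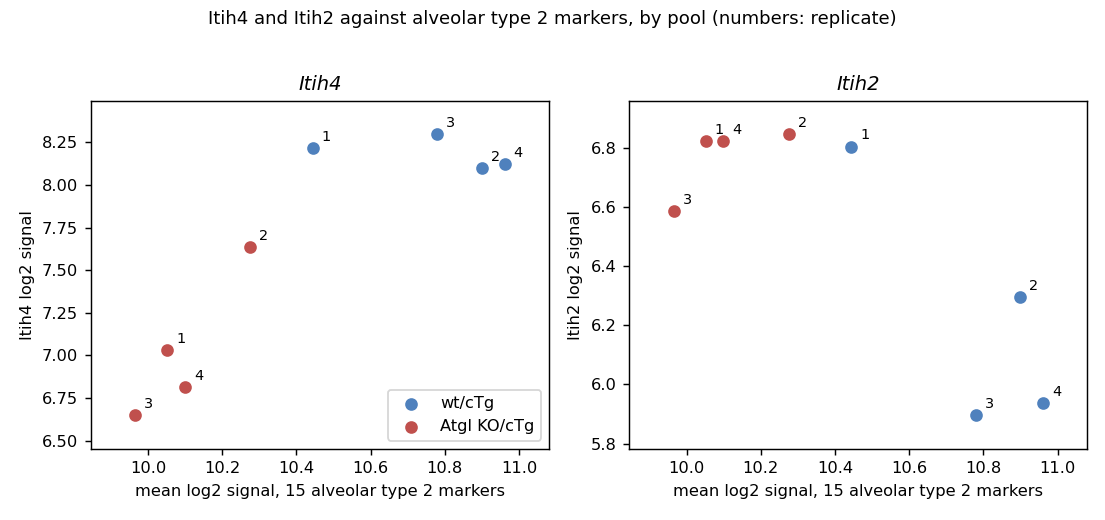
Log2 signal of Itih4 (left) and Itih2 (right) against the mean log2 signal of 15 alveolar type 2 markers, 1 point a pool, numbered by replicate, with wt/cTg in blue and Atgl KO/cTg in red. Itih4 was highest in Atgl KO/cTg replicate 2 (7.63) among the red points, and Itih2 in wt/cTg replicate 1 (6.80) lay level with the red points.

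The genes whose pattern over the 8 arrays was most like that of Itih4 were named by Pearson's r among all genes tested, as a description: the arrays share the genotype contrast, which alone gives high values. They were Sgpp2, a sphingosine-1-phosphate phosphatase (r = 0.955), Snx7, a sorting nexin (0.952), Egfl6, a secreted protein with EGF repeats (0.939), the transcript 4833420G17Rik (0.937), Iah1, an esterase (0.929), Serpinb9, an intracellular inhibitor of granzyme B (0.927), Gabrq, a GABA receptor subunit (0.920), and Pnpla2 itself (0.920). Of these 8, Egfl6 (-1.35, limma adjusted p = 0.0461) and Pnpla2 (-1.72, limma adjusted p = 0.000116) passed over all genes. Pnpla2 passed in all 8 fits without 1 array, and Egfl6 only when wt/cTg replicate 1 (-1.49) or else Atgl KO/cTg replicate 2 (-1.53) was left out. Sgpp2 repeated the Itih4 order of the Atgl KO/cTg pools, at 5.15, 5.84, 4.64 and 4.96, with 5.99, 5.94, 6.33 and 6.52 in wt/cTg. Its difference was -1.04 (SE 0.23, limma adjusted p = 0.253).

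With each genotype's mean taken off, other genes came first: Rfxap, a subunit of the factor that drives MHC class II genes (r = 0.988 over the 8 centred arrays), Rwdd2a (0.98), Tspo, a protein of the outer mitochondrial membrane (0.973), Syt8, a synaptotagmin (0.973), and Zcchc3 (0.973). Itih4 varied more among the Atgl KO/cTg pools (SD 0.43) than among the wt/cTg pools (SD 0.09), so these r follow mainly the Atgl KO/cTg pools. Before the means were taken off, r with Itih4 was 0.025 for Rfxap and ran from -0.043 (Zcchc3) to 0.328 (Rwdd2a) over these genes. None of these 5 passed between genotypes, with differences of 0.02 to 0.19 and limma adjusted p of 0.797 to 0.983. Among the Atgl KO/cTg pools Rfxap, like Itih4, was highest in replicate 2 (7.48). In all other pools of both genotypes Rfxap read 6.89 to 7.13, whereas Itih4 was higher in every wt/cTg pool than in any Atgl KO/cTg pool. For Itih2, a list added after its values were seen, the most similar over 8 arrays were Elapor1 (0.982), Cdk5rap3 (0.975), Rom1 (0.974), Tent5c (0.971) and Tmbim4 (0.957). None of these passed, with differences of 0.10 to 0.39.

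The genes beside Itih4 on chromosome 14 did not share its difference in size. In RefSeq gene order, Mustn1, a small nuclear protein of the musculoskeletal system, comes just before Itih4 and read 9.03, 8.93, 8.87 and 9.09 in Atgl KO/cTg and 9.52, 9.41, 8.94 and 9.57 in wt/cTg. Only wt/cTg replicate 3 fell within the Atgl KO/cTg range, and the difference was -0.38 (SE 0.13, limma adjusted p = 0.485). Stimate (-0.15), Sfmbt1 (0.04) and Prkcd (0.07) lie before it, and Nek4 (-0.01), Spcs1 (-0.02), Glt8d1 (0.02) and Gnl3 (-0.17) lie after Itih1. None of these 8 neighbours passed over all genes. Beside the Itih2 and Itih5 pair, the tested Atp5c1 (-0.10) and Kin (-0.14) did not pass, and Sfmbt2 (-0.06) and Mir669e (-0.02) lay below the filter.

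**Figure D4:**
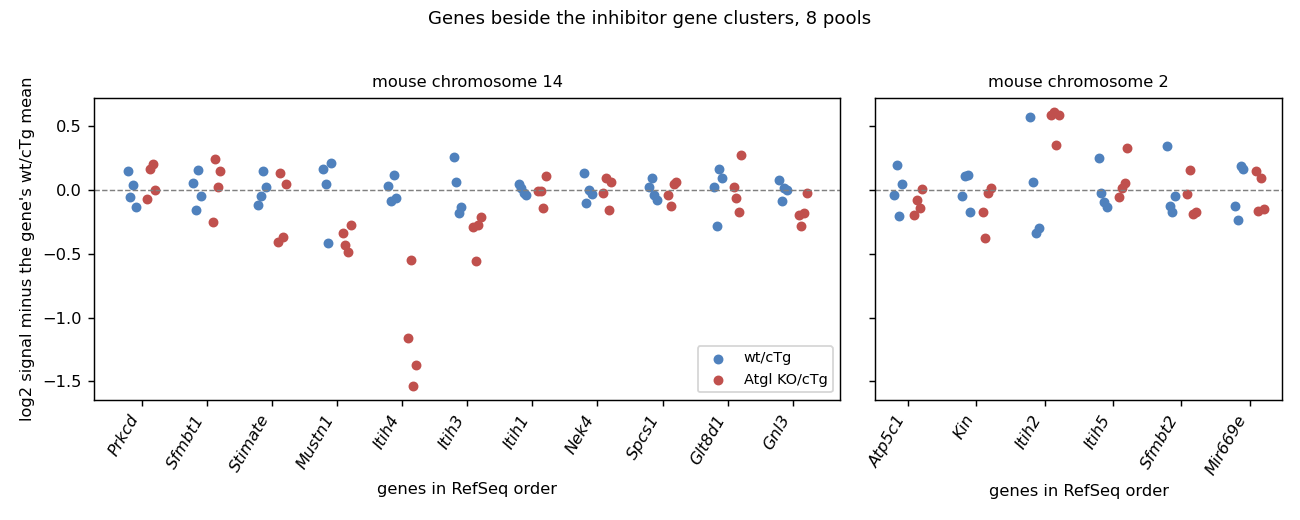
Log2 signal minus the gene's wt/cTg mean (vertical axis) in each wt/cTg pool (blue) and Atgl KO/cTg pool (red), with genes in RefSeq order along each axis. Among the 8 genes flanking the chromosome 14 cluster, differences ran from -0.38 (Mustn1) to 0.07 (Prkcd), against -1.15 for Itih4.

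Genes around the family were counted from 8 lists of its biochemistry, which were drawn up with earlier results of these arrays known. Of 132 listed genes, 124 had a probe set and 77 were tested. Of these 77, 15 had an unadjusted limma p under 0.05, against 1043 of all 13112 genes tested. Over all lists 2 fell and 1 rose, 3.9% of the genes tested against 0.0991% of all genes, but the 3 were known when the lists were made. None of the 3 calls held in most fits with 1 array left out, while each difference kept its direction. With 1 array left out Mme passed in 1 of 8 fits, that without wt/cTg replicate 1 (-1.19), and its difference ran from -1.19 to -0.96. Hc passed in 2, those without wt/cTg replicate 1 (-1.67) or Atgl KO/cTg replicate 2 (-1.55), over a range of -1.67 to -1.35. Wfdc21 passed in 3, those without wt/cTg replicate 1 (0.88) or 3 (1.10) or Atgl KO/cTg replicate 2 (1.04), over a range of 0.88 to 1.10. The median difference was -0.02, against -0.01 over all genes tested.

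Hyaluronan, the glycan that takes up the heavy chains, showed no gene past the threshold on either side of its handling. Of 7 tested genes of its synthesis and breakdown, 0 passed limma and 0 had an unadjusted p under 0.05, with differences from -0.20 (Hyal3, a hyaluronidase family member) to 0.19 (Gusb, beta-glucuronidase). The synthases Has2 and Has3 had means over all pools below the filter and were not tested, and Has1 was at 0.05. Of 10 tested genes of hyaluronan binding, 0 passed and 1 had an unadjusted p under 0.05: Cd44, the main hyaluronan receptor, at 8.84 ± 0.08 against 8.64 ± 0.13 (SD, n = 4), a difference of 0.20 (limma adjusted p = 0.596). Lyve1, the hyaluronan receptor of lymphatic endothelium, had the lowest difference (-0.28, limma adjusted p = 0.784). Ptx3, which joins heavy chains and TSG-6 in hyaluronan matrix, lay below the filter at 4.82 and 4.95.

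Genes that build the chondroitin sulfate between heavy chain and bikunin gave 0 of 10 past the threshold and 2 at an unadjusted p under 0.05. B3gat3, which adds the glucuronic acid that completes the linkage region, read 6.74 to 6.999 in Atgl KO/cTg and 7.17 to 7.37 in wt/cTg. Its groups did not overlap, as held for 4.35% of all genes tested (2.62% lower and 1.74% higher), and its difference of -0.30 did not pass (SE 0.10, limma adjusted p = 0.485). The highest difference was that of Chpf, a chondroitin polymerizing factor (0.16).

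In the kallikrein and kinin list, which holds the protease system that cuts the Itih4 product, 1 of 5 tested genes fell. Mme, neprilysin, a membrane peptidase that breaks down bradykinin, fell from 8.66 ± 0.35 to 7.58 ± 0.19 (SD, n = 4), a difference of -1.08 (SE 0.16, limma adjusted p = 0.0477). Its wt/cTg pools read 8.33, 8.91, 8.39 and 9.01 and its Atgl KO/cTg pools 7.50, 7.37, 7.65 and 7.82. Bdkrb2, the constitutive bradykinin receptor, was not tested, since its mean over all pools lay below the filter. Its Atgl KO/cTg pools read 4.4 to 5.02 (mean 4.78), below the filter, and its wt/cTg pools 5.24 to 5.62 (mean 5.41), above it. The groups did not overlap, with a difference of -0.63. Serping1, the inhibitor of plasma kallikrein, was at -0.12 (limma adjusted p = 0.765), and Klk1, tissue kallikrein, at 0.17 (0.903). Klkb1, plasma kallikrein itself, had no probe set with that symbol alone and was not analysed here.

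Among protease inhibitors of the Kunitz and WAP types, 1 of 8 tested genes rose. Wfdc21, a small WAP domain protein, rose from 9.44 ± 0.27 to 10.42 ± 0.16 (SD, n = 4), a difference of 0.98 (SE 0.13, limma adjusted p = 0.0294). Spint1, a membrane Kunitz inhibitor, was higher without overlap (8.43 to 8.68 against 8.29 to 8.39), but its difference of 0.19 did not pass (limma adjusted p = 0.5996). Tfpi, the Kunitz inhibitor of tissue factor, had the lowest difference (-0.34, limma adjusted p = 0.519).

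Among other acute phase plasma proteins, the class to which Itih4 is assigned, 1 of 14 tested genes fell and 0 rose. Of the 14, 11 lay above 0 and 3 below (median 0.20, 4 at an unadjusted p under 0.05), and the mean over the list overlapped between genotypes (8.41 to 8.74 in Atgl KO/cTg pools, 8.41 to 8.69 in wt/cTg pools). The gene that fell, in the direction of Itih4, was Hc, complement component C5 (-1.47, SE 0.18, limma adjusted p = 0.0286), and Hc is also among the alveolar type 2 markers. Hp, haptoglobin, which is also among the club cell markers, read 12.39 to 12.50 in Atgl KO/cTg and 12.14 to 12.37 in wt/cTg, without overlap. Its difference was 0.18 (limma adjusted p = 0.485). Lcn2, an iron siderophore binding protein, had the highest difference (0.44, limma adjusted p = 0.7002), and Cp, ceruloplasmin, was at 0.39 (0.494). The fibrinogen genes Fga, Fgb and Fgg lay below the filter.

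In the interleukin 6 and STAT3 list 0 of 13 tested genes passed, and 1 had an unadjusted p under 0.05. Il1b had the highest difference (0.41, limma adjusted p = 0.722) and the receptor gene Il1r1 the lowest (-0.38, 0.675). Stat3 itself was at -0.02 (SE 0.09) and Il6 lay below the filter. In the list of other genes with von Willebrand A or VIT domains, the domains of the heavy chains, 0 of 10 passed and 3 had an unadjusted p under 0.05. The lowest was Antxr1, an anthrax toxin receptor (-0.40, limma adjusted p = 0.492), and the highest Vwf, von Willebrand factor (0.16, 0.904). Matn4, a matrilin, was not tested, since its mean over all pools lay below the filter. It was lower without overlap (4.62 ± 0.13 against 5.43 ± 0.33, SD, n = 4). Its wt/cTg pools read 5.197 to 5.91, above the filter, and its Atgl KO/cTg pools lay below it. Vwa5b2, below the filter in both genotypes, was higher without overlap (4.37 against 4.17).

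**Figure D5:**
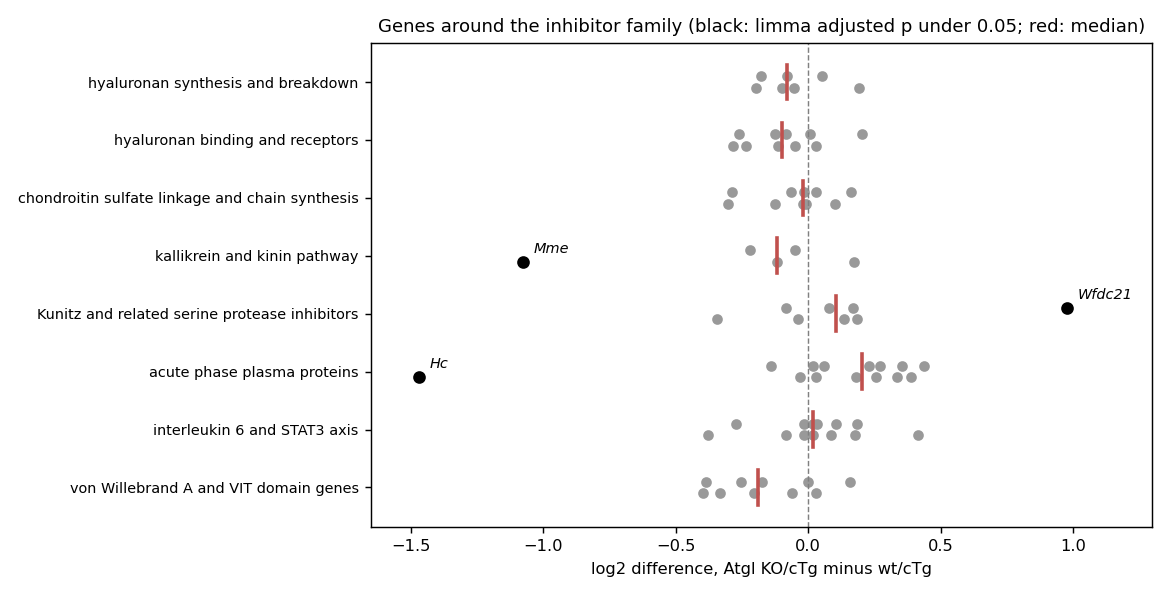
Log2 difference (horizontal axis, Atgl KO/cTg minus wt/cTg) of the 77 tested genes in the 8 lists; each point is a gene, black points passed limma at an adjusted p of 0.05, and red lines are list medians. Hc (-1.47) and Mme (-1.08) lie at the left and Wfdc21 (0.98) at the right, and all other points lie between -0.40 and 0.44.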

How the data were processed

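RNA of each pool was extracted with a miRNeasy Micro kit, amplified from 50 ng with a NuGEN Ovation Pico system and labelled with biotin, per the labels' protocols. The authors deposited log2 signals, 1 per probe set and array. That scale was read from the values (1.85 to 13.5, array medians of 5.12 to 5.24), and no source used here gives the software, background correction or normalization. Scanner files, detection calls and scan dates were not used here, and the number of arrays limits the precision.

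Of 41345 probe sets, 23521 had 1 gene symbol, 1814 several and 16010 none. The probe set with the highest mean was kept for each of 22180 genes, and 13112 genes with a mean above 5.18 were tested. limma 3.58.1 (R 4.3.3) compared genotypes, two-sided, with a variance trend, Benjamini-Hochberg adjustment over all genes tested and a threshold of 0.05. Errors and intervals of members below the filter come from a separate fit of the same kind over all 22180 genes, without the level filter. The steps were tested on simulated data. Correlations between arrays ran from 0.965 to 0.985, and no pair was identical. Replicate numbers only name the pools, in accession order. Neighbouring genes were taken in RefSeq order by gene ID, and all 7 members had a start site window. Figures used matplotlib 3.10.9.

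The members, gene lists and marker lists were chosen with earlier results of these data known. Named genes were the members, list genes past the threshold or with groups that do not overlap, the highest and lowest of each list, the genes most like Itih4, the neighbours, and Pnpla2. Other genes were named after their values were seen. They are Has1, Has2, Has3, Ptx3, Serping1, Cp, Fga, Fgb, Fgg, Stat3, Il6, Alb, Xist, Kdm5d, Eif2s3y and the genes most like Itih2. Alternatives covered the level filter, variance trend, normalization, centring, array weights, probe set averaging, age, runs of mouse numbers and each array left out.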

Additional observations from a re-analysis of the deposited data

Results flagged for a closer look

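Itih2 in Atgl KO/cTg had 1 pool apart from the others. Replicate 3 read 6.58 and the other pools 6.82 to 6.85, so the gap was 0.907 of the group's range, above Dixon's 95% critical value for 4 samples. Without it the Itih2 difference was 0.60 against 0.54 with it. Chance gives such a gap in about 1 in 20 groups, and 14 groups were checked.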

How the results depend on the processing

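The count of 13 genes past the limma threshold depended on the processing. It was 7 without a level filter, 1 without the variance trend, 1 after quantile normalization, 23 with array weights, 7 with age as a covariate and 3 with runs of mouse numbers as a block, which drops wt/cTg replicate 3, and it ran from 1 to 25 with 1 array left out. The cause was not tested. It was 14 with a higher level filter, 19 with centred arrays and 14 with probe sets averaged.

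Itih4 was lower in every setting run, from -1.35 to -1.03 with 1 array left out and from -1.29 to -1.13 in the 9 other settings. It passed in 1 of the 8 fits without an array and in 4 of the 9 others, those with a higher level filter, centred arrays, array weights or averaged probe sets. Itih2 ran from 0.36 to 0.73 and Itih5 from 0.005 to 0.17 over the same settings, and neither passed in any. The 4 members below the filter were recomputed only without an array, after quantile normalization and with centred arrays. There Itih3 ran from -0.39 to -0.25, Itih1 from -0.05 to 0.03, Ambp from 0.11 to 0.21 and Tnfaip6 from 0.09 to 0.29. The labels carry no replicate numbers and do not say which pools form the 4 sets of the design text, so no pairing by replicate was made. The fit with runs of mouse numbers as a block was tried as an alternative only, since the labels do not tie runs to sets. Alveolar type 2 markers past the threshold were 5 of 15 as reported, 4 without a level filter, 3 with age, 8 with centred arrays, 9 with array weights and 0 without the variance trend, after quantile normalization or with the block. Cardiac markers were 2 as reported, 1 with array weights and 0 without a level filter, without the trend, after quantile normalization or with the block.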
